A study of Mus musculus with 12 samples.

Results

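Follistatin, the activin and inhibin subunits, their receptors and a transducer of their signal were followed in bulk RNA-seq of the arcuate nucleus (ARC), a part of the mediobasal hypothalamus. The 10 genes are 3 for secreted follistatin-type proteins (Fst, Fstl3 and Fstl1), 3 for ligand subunits (Inha, Inhba and Inhbb), 3 for receptors (Acvr1b, Acvr2a and Acvr2b) and Smad3. They were picked by name from the 16640 genes of the deposited table, and all 10 were present and passed the filter on low values. Fst led to the choice of this family, because it was already known to be high in the mutant chow libraries. Its values there, and the calls that follow from them, are therefore a description and support nothing.

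Activins are dimers of 2 beta subunits, encoded by Inhba and Inhbb, and inhibins pair a beta subunit with the alpha subunit encoded by Inha. Activin binds a type II receptor (ACVR2A or ACVR2B), which recruits the type I receptor ACVR1B. The active receptor phosphorylates SMAD2 and SMAD3, which then enter the nucleus with SMAD4. Follistatin and its relative FSTL3 wrap around activin outside the cell and keep it from its receptors. The family is best known for setting the release of follicle-stimulating hormone from the pituitary, and it also acts in muscle, bone and brain.

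The 12 libraries came from female mice of 27 weeks on a mixed genetic background, and all animals were homozygous for the floxed Esr1 allele (Esr1 fl/fl). Controls (Ctrl) carried only this allele, and mutants (NkxCre, Esr1 Nkx2-1Cre) also carried a Cre recombinase under Nkx2-1, so that deletion follows the past or present expression of Nkx2-1 and not a single cell type. There were 3 control and 4 mutant libraries on chow, and 2 control and 3 mutant libraries on a high-fat diet (HFD) given for 17 weeks. The tissue was microdissected, and the labels do not say whether each library holds 1 animal. The comparisons ask how the loss of Esr1, which encodes oestrogen receptor alpha, alters ARC transcripts and how a chronic HFD alters them in each genotype.

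Values are an abundance signal from the authors' processing, read here as normalised for gene length because column totals lie near the scale of TPM. The scaling between libraries was not given. Column totals ranged from 922172 to 1254999, and the sequencing depth is unknown. Esr1 was 7.29, 17.8 and 19.8 in control chow, 1.65 to 6.05 in mutant chow, 15.3 and 22.4 in control HFD, and 10.7, 11.9 and 16.6 in the libraries labelled mutant HFD. Esr1 thus went against the label in the last group, which overlapped control HFD, and directions drawn from these libraries carry that limit. Mutant chow replicate 3 stood apart, with 1768 genes listed at 0 against 201 to 1019 in the others and a median Spearman rho to the other libraries of 0.908 against 0.933 to 0.959. All 16 arcuate neuron markers were above 0 in every library, with summed signals of 2380 to 8720 over the libraries. In bulk tissue, fewer cells of a type and less RNA per cell cannot be told apart.

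RefSeq promoter sequences (GRCm38.p6) were matched for 9 of the 10 genes, all but Fst. Because the deleted gene encodes a receptor that binds DNA, these sequences were searched on both strands. They hold the 250 bases upstream of each RefSeq start and further bases after it. The search covered the oestrogen response half-site AGGTCA, the full oestrogen response element (GGTCA, 3 bases of any kind, then TGACC, which contains the last 5 letters of the half-site) and the SMAD box CAGAC, which shares no overlap with either as spelt. The shares below are over the whole sequences, and each member counted had a match within the 250 upstream bases. The half-site was found in 16.3% of 32851 promoters and in 2 of the 9 (Inha and Fstl3). The full element was found in 0.07% of all promoters and in 0 of the 9. The SMAD box was found in 49.6% of all promoters and in 4 of the 9 (Inha, Acvr2a, Acvr2b and Fstl3). The Inha window, chr1:75507359-75507608, lies inside the annotated gene, which runs from 75507077 to 75510366. Its half-site and SMAD box are therefore not upstream of the annotated start. The Fstl3 window is shown because it holds both short motifs in the closest relative of follistatin, and the Inhbb window because it holds neither and belongs to the only member beside Fst with an unadjusted p under 0.05. Capitals mark the half-site (read here as TGACCT) and the SMAD box (read here as GTCTG). The first runs over 248 bases at chr10:79777024-79777271, plus strand, and the second over 250 bases at chr1:119422249-119422498, minus strand, both ending next to the annotated start of the gene.
Fstl3: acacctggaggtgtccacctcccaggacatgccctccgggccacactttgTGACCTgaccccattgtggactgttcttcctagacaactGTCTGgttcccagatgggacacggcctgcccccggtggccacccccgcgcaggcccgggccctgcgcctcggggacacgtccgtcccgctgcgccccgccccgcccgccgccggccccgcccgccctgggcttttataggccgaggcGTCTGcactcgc
Inhbb: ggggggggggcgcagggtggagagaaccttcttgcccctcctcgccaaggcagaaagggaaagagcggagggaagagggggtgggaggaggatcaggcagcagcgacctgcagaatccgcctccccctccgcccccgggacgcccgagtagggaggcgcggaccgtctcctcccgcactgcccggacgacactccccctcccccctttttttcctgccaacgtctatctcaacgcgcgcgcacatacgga
In Fstl3 the half-site lies at -200 to -195 and the SMAD boxes at -161 to -157 and -14 to -10, counted back from the RefSeq start. A match is a run of letters and not evidence of binding.

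Fst (ENSMUSG00000021765, GRCm38 chromosome 13, 114452290 to 114458951, minus strand) encodes follistatin and was high in all mutant chow libraries and near 1 elsewhere. Its signal was 1.48, 1.45 and 0.552 in control chow. It was 22.3, 9.19, 33.2 and 13.3 in mutant chow. It was 0.842 and 1.68 in control HFD and 1.14, 1.53 and 1.19 in the libraries labelled mutant HFD. Every mutant chow library thus lay above the other 8 libraries, and the remaining 3 groups overlapped one another. Mutant chow averaged 19.5 ± 10.7 (SD, n = 4), against 1.16 ± 0.528 for control chow (SD, n = 3). Control HFD averaged 1.26 ± 0.593 (SD, n = 2), and the libraries labelled mutant HFD averaged 1.29 ± 0.215 (SD, n = 3). The spread within mutant chow was wide, and without replicate 3, which held the highest value, the mean was 14.9.

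**Figure D1:**
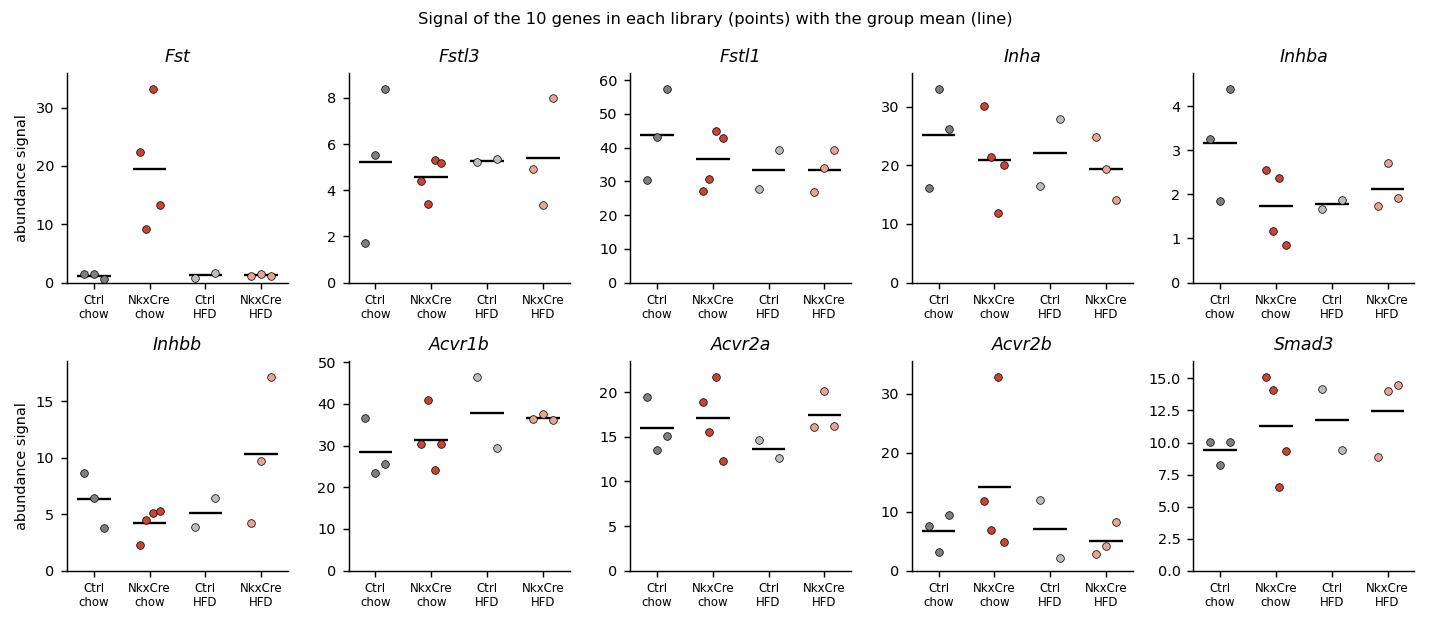
Abundance signal of the 10 genes (y axes, linear from 0) in the 12 libraries (points) by group (x axis: Ctrl chow, NkxCre chow, Ctrl HFD, NkxCre HFD), with a line at each group mean. Fst was 9.19 to 33.2 in NkxCre chow and at most 1.68 in the other groups. For the other 9 genes the groups compared overlapped in the signal as deposited, except Acvr2a between genotypes on HFD.

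The Fst signal in mutant chow was 16.8 times the control chow mean, and the mean of the libraries labelled mutant HFD was 6.59% of the mutant chow mean. On the log2(signal + 1) scale, which understates the change of low genes, these differences were 3.13 ± 0.41 (SE) between genotypes on chow and -3.02 ± 0.41 (SE) between diets in mutants. The genotype by diet term was -3.09 ± 0.64 (SE). Without mutant chow replicate 3 they were 2.83, -2.72 and -2.79. All 3 contrasts share the mutant chow libraries, and they are those on which Fst was selected. The number of members past a limma Benjamini-Hochberg adjusted p of 0.05 was 1 of 10 on chow (0.019% of the 15801 genes tested), 1 of 10 between diets in mutants (0.019%) and 0 of 10 in the genotype by diet term (0%). The 1 member was Fst in both cases, which follows from its selection, and nothing is read from it.

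Outside the mutant chow group the differences of Fst were smaller than their standard errors. Between the genotypes on HFD the difference was 0.04 ± 0.49 (SE, 95% confidence interval -1.02 to 1.10, limma Benjamini-Hochberg adjusted p = 1), and it was -0.001 after columns were rescaled to a common total. Between the diets in controls it was 0.07 ± 0.49 (SE, 95% confidence interval -0.99 to 1.13, limma Benjamini-Hochberg adjusted p = 0.999). Within mutant chow, the library with the highest Fst had an Esr1 signal of 1.93, and the library with the highest Esr1 signal, 6.05, had the second highest Fst signal.

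Summed microglial markers were also highest in mutant chow. The summed signal of 8 of 8 listed microglial genes was 644 to 681 in mutant chow, 319 to 510 in control chow, 334 to 435 in control HFD and 338 to 453 in the libraries labelled mutant HFD. None of these 8 genes was at 0 in any library. By limma, 0 of 8 passed the adjusted threshold in either comparison that includes mutant chow. At an unadjusted p under 0.05, 5 of 8 were higher in mutant than in control chow (4.34% of all genes in either direction) and 5 of 8 were lower in the libraries labelled mutant HFD than in mutant chow (5.37%). Aif1 and P2ry12 did not separate the groups, at 19.3 to 43.4 and 12.6 to 64.5 in mutant chow against 12.8 to 41.3 and 10.1 to 23.2 in control chow. Cx3cr1 and C1qa also overlapped, at 21.05 to 32.63 and 154.1 to 194.5 in mutant chow against 15.42 to 27.83 and 74.42 to 179.8 in control chow. Ctss, a lysosomal protease gene of microglia, differed between genotypes on chow by 0.78 ± 0.19 in log2 units (SE, Benjamini-Hochberg adjusted p = 0.803 from limma), and C1qb, a complement gene, differed by 0.85 ± 0.26 (SE, adjusted p = 0.982), so neither passed the threshold. The summed signal of the pituitary list, from a gland in which Fst, Inha and Inhbb are known to be expressed, was 2370 to 3590 in mutant chow, within the 1510 to 10300 of control chow, with Prl and Gnrhr at 0 in some libraries. The sums of the other 8 marker lists also overlapped between mutant chow and each group it was compared with. Their medians still differed, and that of 8 oligodendrocyte genes was 0.654 between genotypes on chow and -0.652 between diets in mutants, beside 0.544 and -0.569 for the microglial list. The median of 6 ventromedial nucleus genes was 0.95 on chow, with 2 of 6 at an unadjusted p under 0.05, and 0.04 between diets in mutants. The part of these cell types in the Fst difference was not tested.

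Fstl3 (ENSMUSG00000020325, chromosome 10, 79777272 to 79782630, plus strand), whose protein binds activin in the same way as follistatin, did not share the pattern of Fst. Its signal was 1.73, 5.52 and 8.39 in control chow and 4.39, 3.39, 5.32 and 5.20 in mutant chow. It was 5.20 and 5.35 in control HFD and 4.92, 3.34 and 7.98 in the libraries labelled mutant HFD. The 4 groups overlapped, with means between 4.57 and 5.41. The ratio of the Fst signal to the Fstl3 signal within a library was 2.56 to 6.25 in mutant chow and 0.0658 to 0.859 in the other libraries. Fst was thus the lower of the pair in 8 of 8 libraries outside mutant chow and the higher in 4 of 4 within it.

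Fstl1 (ENSMUSG00000022816, chromosome 16, 37776873 to 37836514, plus strand), a secreted glycoprotein gene with a follistatin-like domain, was the most abundant member by mean signal, at 37.0 over the 12 libraries. It was 30.5, 43.2 and 57.5 in control chow and 27.2, 30.9, 45.1 and 42.9 in mutant chow. It was 27.7 and 39.4 in control HFD and 27.0, 33.9 and 39.2 in the libraries labelled mutant HFD. All 4 groups overlapped.

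Among the ligand subunits, Inha (ENSMUSG00000032968, chromosome 1, 75507077 to 75510366, plus strand), the inhibin alpha subunit gene, was more abundant than either beta subunit gene on average. Its signal was 16.1, 33.1 and 26.2 in control chow, 30.1, 21.4, 11.8 and 20.0 in mutant chow, 16.4 and 27.9 in control HFD, and 24.8, 19.4 and 14.1 in the libraries labelled mutant HFD. The group means ran from 19.4 to 25.1, and the values overlapped. The ratio of Inha to the 2 beta subunits together varied from 0.74 to 6.25 over the libraries without separating the groups.

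Inhba (ENSMUSG00000041324, chromosome 13, 16011851 to 16031621, plus strand), for the beta A subunit of activin A, was the least abundant member by mean signal, at 2.20 over the 12 libraries. It was 3.25, 1.86 and 4.40 in control chow and 2.56, 1.17, 2.37 and 0.845 in mutant chow. It was 1.68 and 1.87 in control HFD and 1.75, 2.72 and 1.92 in the libraries labelled mutant HFD. The control chow mean was the highest, and neighbouring groups in the order of means overlapped.

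Inhbb (ENSMUSG00000037035, chromosome 1, 119415465 to 119422248, minus strand), for the beta B subunit of activin B, was the only other member with an unadjusted p under 0.05 in any comparison. It was 8.67, 6.41 and 3.81 in control chow and 2.26, 4.47, 5.06 and 5.24 in mutant chow. It was 3.89 and 6.39 in control HFD and 4.23, 9.68 and 17.2 in the libraries labelled mutant HFD. The last group was the most variable, with 1 of its 3 libraries inside the mutant chow range. Between the diets in mutants the difference was 0.98 ± 0.43 in log2 units (SE, limma, adjusted p = 0.916, unadjusted p = 0.0429), which did not pass the threshold. Leaving out mutant HFD replicate 3 gave 0.55 ± 0.44 (SE, limma, adjusted p = 0.999, unadjusted p = 0.236). Leaving out mutant HFD replicate 1 gave 1.45 ± 0.42 (SE, limma, adjusted p = 0.838, unadjusted p = 0.00536). With columns rescaled to a common total the difference was 0.96 (limma, adjusted p = 0.985, unadjusted p = 0.0542). Its size and its unadjusted p thus moved both ways with single libraries.

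The summed signal of both beta subunit genes was 8.20 to 11.9 in control chow and 4.82 to 7.43 in mutant chow, ranges that did not overlap, a separation that 4.51% of single genes had on chow. This separation depends on the scaling. Control chow replicate 2 (8.27) had a column total of 1254999 and mutant chow replicate 3 (7.43) one of 933877. Dividing by the column totals would bring control and mutant chow into overlap. Each of the 2 genes alone overlapped between these groups. The sum was 5.56 and 8.27 in control HFD and 5.97, 12.4 and 19.1 in the libraries labelled mutant HFD. The ratio of Fst to this sum averaged 3.23 ± 1.54 for mutant chow (SD, n = 4) and 0.122 ± 0.0538 for control chow (SD, n = 3). On HFD it averaged 0.177 ± 0.0367 for controls (SD, n = 2) and 0.125 ± 0.064 for the libraries labelled mutant HFD (SD, n = 3). The transcript for the binding protein was therefore more abundant than those for the 2 beta subunits in the 4 mutant chow libraries, at 4.63, 1.63, 4.47 and 2.19 times their sum, and at most 0.203 times elsewhere. These are transcript ratios, and no protein was measured.

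**Figure D2:**
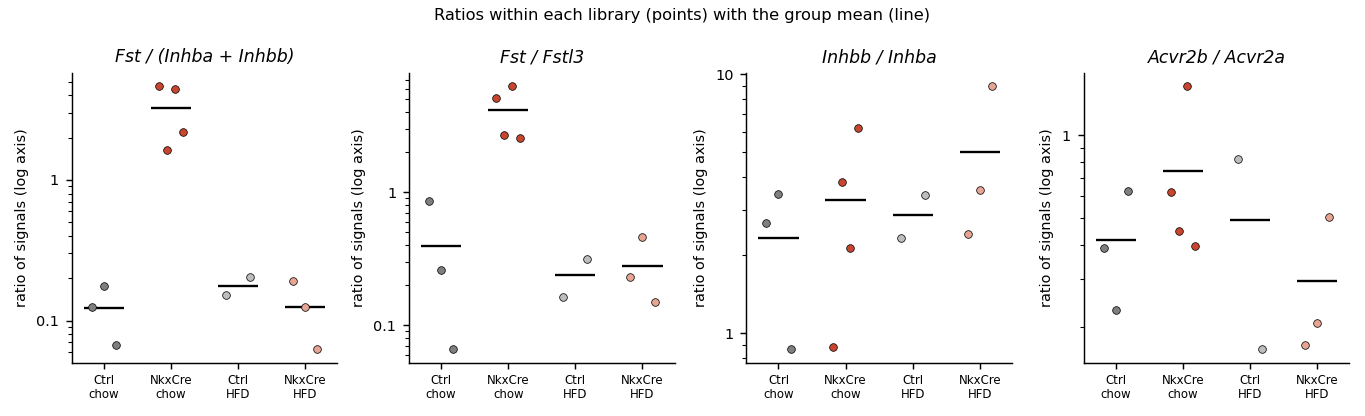
Ratio of signals within each library (points, log y axes) by group (x axis), with a line at the group mean, for Fst to the 2 beta subunits, Fst to Fstl3, Inhbb to Inhba and Acvr2b to Acvr2a. The ratio of Fst to the beta subunits was 1.63 to 4.63 in NkxCre chow and 0.0623 to 0.203 in the other libraries, whereas Inhbb to Inhba and Acvr2b to Acvr2a overlapped between groups.

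Of the receptors, Acvr1b (ENSMUSG00000000532, chromosome 15, 101174067 to 101213684, plus strand), for the type I activin receptor, was the most abundant. Its signal was 36.6, 23.3 and 25.7 in control chow and 30.3, 41.0, 24.0 and 30.3 in mutant chow. It was 46.5 and 29.3 in control HFD and 36.4, 37.6 and 36.03 in the libraries labelled mutant HFD. The groups overlapped, and the libraries labelled mutant HFD lay close together, with an SD of 0.800.

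Acvr2a (ENSMUSG00000052155, chromosome 2, 48814109 to 48903269, plus strand), for a type II receptor, had the narrowest span of the 10 genes, with a highest library 1.77 times the lowest. It was 19.5, 13.5 and 15.1 in control chow, 18.9, 15.5, 21.8 and 12.3 in mutant chow, 14.7 and 12.7 in control HFD, and 16.1, 20.2 and 16.2 in the libraries labelled mutant HFD. The libraries labelled mutant HFD lay above control HFD without overlap. It was the only member with such a separation on HFD, where 15.7% of genes tested had one, and it had no unadjusted p under 0.05. Control HFD replicate 1 (14.7) had a column total of 922868 and mutant HFD replicate 1 (16.1) one of 1033520. Dividing by the column totals would bring the groups on HFD into overlap.

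Acvr2b (ENSMUSG00000061393, chromosome 9, 119402118 to 119434995, plus strand), for the other type II receptor, was the most variable of the 9 genes beside Fst. It was 7.58, 3.12 and 9.48 in control chow and 11.7, 6.93, 32.9 and 4.84 in mutant chow. It was 12.02 and 2.10 in control HFD and 2.77, 4.19 and 8.22 in the libraries labelled mutant HFD. The highest value was that of mutant chow replicate 3, and without it the mutant chow mean was 7.84 instead of 14.1. The control HFD mean of 7.06 also rested on 1 library, being 12.02 without replicate 2 and 2.10 without replicate 1. Acvr2b exceeded Acvr2a in 1 of 12 libraries, again mutant chow replicate 3, with a ratio of 1.51.

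Smad3 (ENSMUSG00000032402, chromosome 9, 63646767 to 63757994, minus strand), for the transcription factor that carries the activin signal, was 10.04, 8.26 and 10.04 in control chow and 15.1, 14.1, 6.49 and 9.31 in mutant chow. It was 14.2 and 9.40 in control HFD and 8.86, 14.04 and 14.5 in the libraries labelled mutant HFD. The mutant chow values fell on both sides of the control chow range.

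Over the 9 members beside Fst, 0 passed the limma Benjamini-Hochberg adjusted threshold in any of the 5 comparisons. Between the genotypes on chow, differences ran from -0.62 (Inhba) to 0.73 (Acvr2b) on the log2 scale, with 0 of 9 at an unadjusted p under 0.05 (4.34% of all genes) and 0 of 9 without overlap (4.51%). The median was 0.002 beside 0.014 over all genes. Between the diets in mutants they ran from -1.07 (Acvr2b) to 0.98 (Inhbb), with 1 of 9 at an unadjusted p under 0.05 (5.37% of all genes) and 0 of 9 without overlap (7.99%). The median was 0.153 beside -0.025 over all genes.

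Between the genotypes on HFD the 9 differences ran from -0.17 (Acvr2b) to 0.74 (Inhbb), with 0 of 9 past the adjusted threshold (0.00633% of genes) and 0 of 9 at an unadjusted p under 0.05 (2.21%). Between the diets in controls they ran from -0.54 (Inhba) to 0.39 (Acvr1b), with 0 of 9 past the adjusted threshold (0% of genes), 0 of 9 at an unadjusted p under 0.05 (3.54%) and 0 of 9 without overlap (14.1%). The genotype by diet term ran from -0.90 (Acvr2b) to 1.20 (Inhbb), with 0 of 9 at an unadjusted p under 0.05 (3.44% of genes). The 95% confidence interval lay within 1 unit of 0 on the log2(signal + 1) scale for 5 of the 9 members between genotypes on chow, for 6 between diets in mutants, for 4 between genotypes on HFD, for 2 between diets in controls and for 1 in the genotype by diet term. Larger changes of the remaining members are therefore within the error of these libraries.

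**Figure D3:**
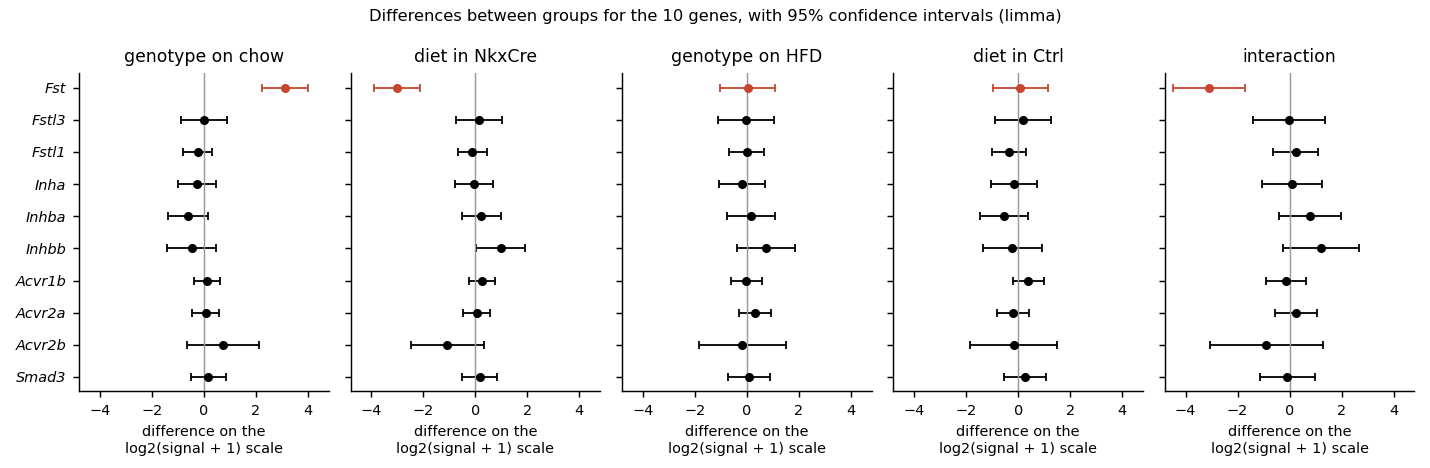
Difference of each of the 10 genes (y axis) on the log2(signal + 1) scale (x axis) in the 5 comparisons (panels), with points at the limma estimate and bars for the 95% confidence interval. Fst, in red, lies at 3.13 between genotypes on chow and at -3.02 between diets in NkxCre, and among the other 9 genes the interval of Inhbb between diets in NkxCre (0.04 to 1.92) does not include 0.

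The other genes of the pathway were read from a list of 74, of which 70 were in the table and 68 were tested. They covered other genes of the activin and inhibin arm, the TGF-beta and BMP arms, feedback inhibitors and SMAD target genes. In all 5 comparisons, 0 of 68 passed the limma Benjamini-Hochberg adjusted threshold. At an unadjusted p under 0.05 there were 2 of 68 between genotypes on chow (4.34% of all genes), 9 of 68 between diets in mutants, 1 of 68 between genotypes on HFD (2.21%), 2 of 68 between diets in controls (3.54%) and 1 of 68 in the genotype by diet term (3.44%). Apart from the diets in mutants, these were shares of 1.47% to 2.94% of the list. All 9 in mutants were lower in the libraries labelled mutant HFD, a share of 13.2% of the list, where 5.37% of all genes had such a p in either direction and 3.94% had it in this direction. The median difference of the list was -0.11 in this comparison, beside -0.025 over all genes, and these differences share the mutant chow libraries with those of Fst. The 9 genes comprised 3 of the activin and inhibin arm, 2 of the TGF-beta arm, 1 of the BMP arm, 1 feedback inhibitor and 2 SMAD target genes.

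Wfikkn2, for a secreted protein with a follistatin domain that binds GDF11 and myostatin, was highest in 2 of the mutant chow libraries. Its signal was 0.820, 2.03 and 1.87 in control chow, 1.13, 3.54, 18.6 and 14.8 in mutant chow, 1.35 and 1.28 in control HFD, and 0.844, 0.536 and 0.659 in the libraries labelled mutant HFD. The difference was 1.56 ± 0.64 between genotypes on chow (SE, limma, adjusted p = 0.982, unadjusted p = 0.0305), where the groups overlapped. It was -2.14 ± 0.64 between diets in mutants (SE, limma, adjusted p = 0.721, unadjusted p = 0.00549), where they did not, as for 7.99% of genes tested. Without mutant chow replicate 3 these differences were 1.09 (unadjusted p = 0.0885, limma adjusted p = 1) and -1.68 (unadjusted p = 0.015, limma adjusted p = 0.999).

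Gdf11, for a ligand that signals through the activin type II receptors and is bound by follistatin, was 40.03, 44.7, 51.3 and 50.3 in mutant chow and 31.9, 30.1 and 38.9 in the libraries labelled mutant HFD. Its difference between diets in mutants was -0.46 ± 0.16 (SE, limma, adjusted p = 0.825, unadjusted p = 0.0148). Fn1, the fibronectin gene and a SMAD target, was 10.7, 17.6, 27.5 and 13.2 in mutant chow and 9.70, 8.19 and 6.60 in the libraries labelled mutant HFD, a difference of -0.93 ± 0.34 (SE, limma, adjusted p = 0.825, unadjusted p = 0.0189). Both genes had no overlap between these groups, as 7.99% of genes tested did, and both were named by their p in this comparison. In the other comparisons, Pmepa1, a feedback inhibitor of SMAD signalling, differed by -0.76 ± 0.32 between genotypes on chow (SE, limma Benjamini-Hochberg adjusted p = 0.982). Itgav, an integrin gene whose product helps to release latent TGF-beta, differed by -0.74 ± 0.31 between genotypes on HFD (SE, limma Benjamini-Hochberg adjusted p = 1). Between the diets in controls, the SMAD targets Ccn2 and Cdkn1a differed by -0.96 ± 0.34 and -1.02 ± 0.41 (SE, limma Benjamini-Hochberg adjusted p = 0.998 for both). Tgfbr2, the type II TGF-beta receptor gene, had a genotype by diet term of -1.37 ± 0.53 (SE, limma Benjamini-Hochberg adjusted p = 0.999). None of these passed the threshold.

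**Figure D4:**
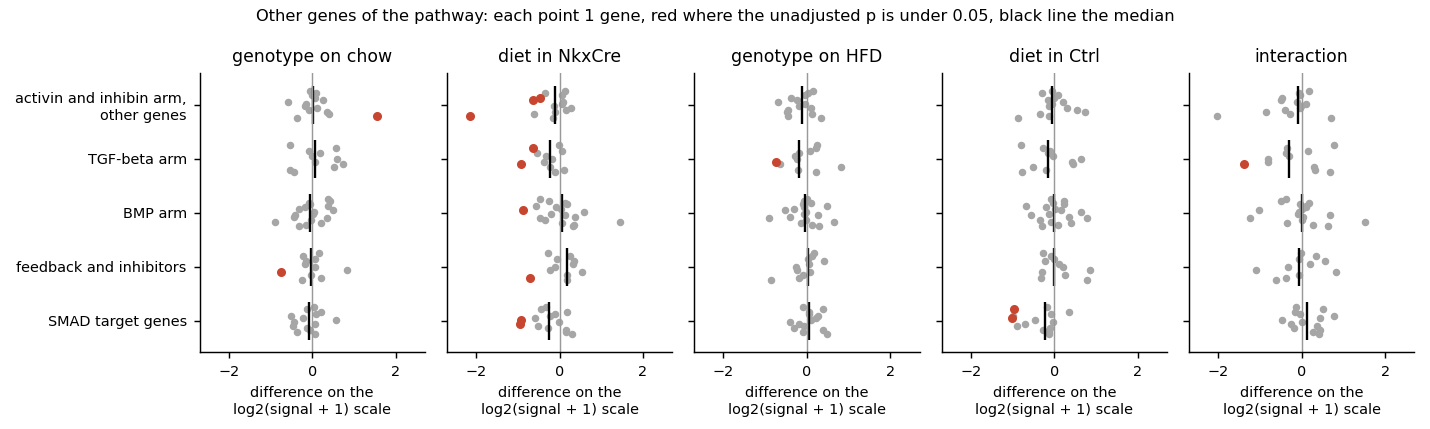
Difference of each of the 68 pathway genes tested (points) on the log2(signal + 1) scale (x axis) by list (y axis) in the 5 comparisons (panels), with a black line at the median of the list and red points for an unadjusted p under 0.05. In the comparison of diets in NkxCre 9 points are red, all left of 0, and Wfikkn2 lies furthest left at -2.14.

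The genes with the pattern most like Fst were ranked by the gap, on the log2(signal + 1) scale, between the lowest mutant chow library and the highest of the other 8 libraries. This measure covers all 12 libraries and follows from the choice of Fst, so it is given without a test. Fst had the largest gap of the 15801 genes, 1.93. The next 5 were Ccn3 (1.64), which encodes a secreted matricellular protein, Grp (1.11), for gastrin-releasing peptide, Penk (0.74), for proenkephalin, Plaur (0.70), for the urokinase receptor, and Igf1 (0.68), for insulin-like growth factor 1. All mutant chow libraries lay above the other 8 for 73 genes (0.462%) and below them for 33 genes (0.209%).

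Plaur was 5.08, 4.07, 3.80 and 5.05 in mutant chow, against 0.0593 to 1.96 in the other libraries. Igf1 was 11.2, 3.79, 10.4 and 6.19 in mutant chow, against 0.225 to 1.99 in the other libraries. In both genes the highest mutant chow value was that of replicate 1, whereas Fst was highest in replicate 3. None of the other 9 members shared the pattern. Their gaps were all below 0, from -0.68 for Acvr2a, at rank 4875, to -2.48 for Inhbb, at rank 14717.

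**Figure D5:**
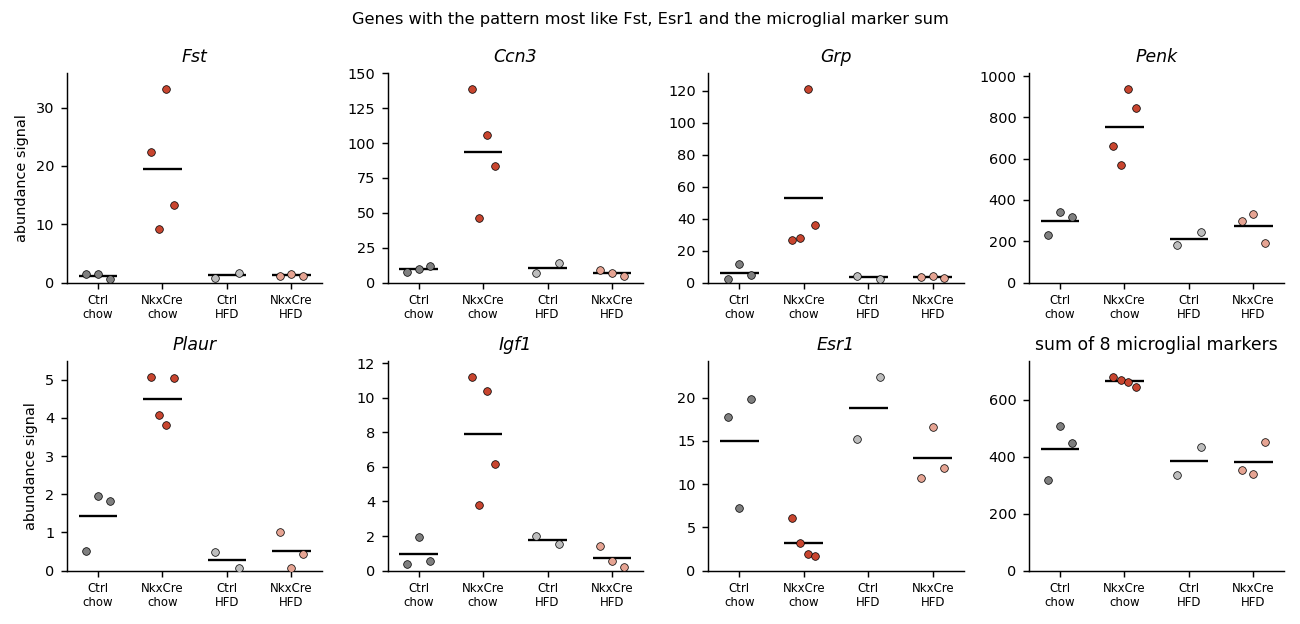
Abundance signal (y axes, linear from 0) of Fst, of the 5 genes with the most similar pattern, of Esr1 and of the sum of 8 microglial markers in the 12 libraries (points) by group (x axis), with a line at the group mean. Fst and the 5 genes are above all other libraries in the 4 NkxCre chow libraries, as is the microglial sum (644 to 681), and Esr1 is 1.65 to 6.05 there.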

How the data were processed

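RNA from microdissected ARC was sequenced in 12 libraries. The authors quantified transcripts (mm10) with kallisto, summed them by gene, tested them with Sleuth and deposited 1 abundance signal per gene and library. The scaling of this signal between libraries and the tool versions were not given in the sources used here. The values are not counts, so no counting intervals or detection floors could be given and no count model was fitted. The precision rests on the spread between libraries, and p-values measure only that spread, which may be partly technical. Symbols and coordinates were taken from the GRCm38 annotation, and 16633 of 16640 genes had a symbol. Reads of overlapping genes cannot be told apart, since the use of strand was not given.

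Differences were tested with limma 3.58.1 in R 4.3.3 (moderated test with a trend, two-sided, Benjamini-Hochberg over all genes, threshold 0.05) on log2(signal + 1), with 1 mean per group and all 12 libraries in the fit. A gene was tested when its signal was at least 1 in at least 2 libraries. The script was tested on simulated data. The members, the lists and the genes named were chosen with earlier results of these data known. Members are given in every library. Fold changes are given for Fst in every comparison and for other members where the unadjusted p was under 0.05. Differences of the remaining members are given by range and count. Pathway genes are named by the smallest unadjusted p under 0.05, up to 3 per comparison, and genes most like Fst by the 5 largest gaps. Microglial genes were named after their values were seen. Alternatives were quantile normalisation, columns rescaled to a common total, a pseudocount of 0.1, no filter, a mean of at least 5, no trend, array weights, only the groups compared, and each library left out in turn. Library numbers follow the order of deposition.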

Additional observations from a re-analysis of the deposited data

Results flagged for a closer look

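In mutant chow, Grp was 121 in replicate 3 whereas replicates 1, 2 and 4 held 26.5, 28.0 and 35.8. The distance to its neighbour made up 0.902 of the group's span, above the Dixon limit for 4 samples. The 30 checks were genes and ratios, all in the same 4 mutant chow libraries, and the ratios share genes with the members. Chance alone is expected to give such a gap in about 1 of 20 checks if the values are normal, which was not tested. The checks are not independent. Replicate 3 also held the highest Fst and Acvr2b signals and 1768 genes at 0. The lowest Grp value in mutant chow was 26.5, above the highest value elsewhere, 11.7.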

How the results depend on the processing

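The count of members called was 1 between genotypes on chow and 1 between diets in mutants, in both cases Fst, as its selection fixes, so the changes below bear on the threshold and are no sign of stability. On chow it was 0 with a pseudocount of 0.1, with a mean of at least 5 and with only the groups compared, and between 0 and 1 when single libraries were left out. Between the diets in mutants it was likewise 0 with a pseudocount of 0.1, with a mean of at least 5 and with only the groups compared, and between 0 and 1 when single libraries were left out. In all, the count was 0 in 12 of 20 alternatives on chow, with a log2 difference of Fst of 2.83 to 3.90, and in 13 of 20 between diets in mutants, with -3.67 to -2.68. Among the libraries left out, only the omission of mutant chow replicate 2 or 3 or control HFD replicate 1 left the count at 1 on chow, and only that of mutant chow replicate 2 or 3 did so between diets. The cause was not tested. In the other comparisons 0 members were called under every alternative. The same alternatives, applied to the pathway list after seeing the data, called 0 genes in all 5 comparisons. The near-zero differences of Fst changed sign. Between genotypes on HFD they were -0.001 with columns rescaled and -0.234 to 0.307 with single libraries left out, and between diets in controls -0.198 to 0.343 with single libraries left out. Leaving out single libraries gave a mean Fst signal of 14.9 to 23.0 in mutant chow. Rescaling the columns moved the median of all genes to 0.119 between diets in controls and to -0.182 in the genotype by diet term, and relative to it Fst stood at 0.03 in the first and -3.02 in the second. No paired analysis was possible because the labels give no replicate numbers that tie libraries of different groups together. A count-based alternative was not run because the values are not counts. Depth is unknown. Standard errors of the 9 other members were 0.359 to 0.999 in the genotype by diet term, 0.275 to 0.766 in both comparisons with the 2 control HFD libraries, and 0.23 to 0.641 in the remaining comparisons.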

Other observations

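Receptor and ligand transcripts differed among themselves in how far single libraries varied. The residual SD on the log2 scale was 0.263 for Acvr2a and 0.299 for Acvr1b, which placed them at the 21.6 and 29.2 percentile of all genes tested. It was 0.602 for Inhbb and 0.98 for Acvr2b, at the 76.8 and 94.2 percentile. The ratio of Inhbb to Inhba ran from 0.866 to 8.96 over the 12 libraries, and its highest value was that of mutant HFD replicate 3, which also held the highest Inhbb signal.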
